A study of Homo sapiens with 12 samples.

Results

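Regions that carried H3K27ac, acetylated H2A.Z (H2A.Zac), total H2A.Z and H3K4me1 together were examined in Huh7, a human hepatocellular carcinoma cell line. A region was an H3K27ac peak of the control cells at least 500 bp wide, on chromosomes 1 to 22 or X, that shared at least 1 bp with a control H2A.Zac peak, a control H2A.Z peak and a control H3K4me1 peak, each also at least 500 bp wide. Of 25333 control H3K27ac peaks of that width, 1632 (6.44%) met the rule, and together they covered 2.81 Mb. The regions were thus chosen by the presence and width of the control peaks of the 4 marks, and the control values of those marks are given only as description. The 4 histone lists of the overexpression cells, both FLAG lists and both input lists were not used in the choice.

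The libraries set cells given extra VPS72 beside cells that were not. In the overexpression group, Huh7 cells whose own VPS72 gene carried a FLAG tag behind its last codon had been infected for 24 h with lenti-VPS72-FLAG. In the control group, Huh7 cells with the same tagged gene had been infected for 24 h with lenti-HA, an empty vector by the design text. The genotype field of the overexpression libraries runs through several VPS names, and it was read as VPS72 from the titles. FLAG thus sat on the cells' own VPS72 in both groups, and on a viral copy as well with overexpression. The knock-in cells came from colonies that survived blasticidin selection, and how many colonies were used is not given in the sources used here. Each group had 1 chromatin immunoprecipitation and sequencing (ChIP-seq) library each for H3K27ac, H2A.Zac, H2A.Z, H3K4me1, FLAG and input, 12 libraries in all, so no difference between the groups has a replicate check and none was tested.

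VPS72, known in yeast as Swc2, is a chaperone for H2A.Z and belongs to the chromatin remodelling machines that exchange H2A.Z into nucleosomes. H2A.Z is typically found in the nucleosomes beside active promoters and at enhancers, and its acetylated form is associated with transcription. H3K27ac marks active promoters and enhancers alike. H3K4me1 is best known from enhancers, and at active promoters it is usually low at the start site and present in the flanks.

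Depth recovered from the peak lists lay between 20.4 and 25.0 M reads for the histone libraries with overexpression and between 17.9 and 22.6 M in the control. The FLAG libraries had 3.07 M reads with overexpression and 4.38 M in the control, so a single read weighs more there. List lengths differed in ways that touch the results below. The H2A.Z list held 13014 peaks of at least 500 bp with overexpression and 31392 in the control. The H3K4me1 list held 74109 such peaks with overexpression and 31560 in the control. Shortest peaks, which follow the fragment length the peak caller used, were 255 bp in the H3K4me1 list with overexpression and 214 bp in the control.

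With overexpression, the same rule gave 1491 of 24000 H3K27ac regions (6.21%), with H3K4me1 at 25% of those that had H2A.Z and H2A.Zac and at 52.0% of the rest. In the control, H2A.Zac was the mark most often found with H3K27ac. It was present at 17947 of the 25333 regions (70.8%), H2A.Z at 10337 (40.8%) and H3K4me1 at 7356 (29.0%). H3K4me1 was less frequent where both H2A.Z and H2A.Zac were present (16.0% of such regions) than where they were not both present (37.8%). The 1632 four-mark regions were compared with 8548 control H3K27ac regions that had H2A.Z and H2A.Zac but no H3K4me1 peak of 500 bp, and with 5679 that had H3K4me1 but no H2A.Z peak of 500 bp.

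The four-mark regions had a median width of 1428 bp, with the middle 50% between 913 and 2192 bp and a full range of 501 to 8286 bp. Regions without H3K4me1 had a median width of 1200 bp and regions without H2A.Z one of 1069 bp. Just inside the width limit lay regions of 501, 501, 502 and 502 bp, with H3K27ac folds of 3.18, 3.37, 2.71 and 2.37. Just outside it lay 4 regions of 498 bp, with folds of 2.71, 4.91, 2.59 and 2.98. In all, 112 of the four-mark regions were under 600 bp wide, and 13 regions of at least 490 bp but under 500 bp carried the other 3 marks.

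Summit height, the number of reads at a summit over the genome average of the same library, was used to set levels side by side. The height of a mark at a region is that of the highest summit among the peaks that overlap it, and this summit can lie outside the region. With overexpression it had a median height of 11.2 for H3K27ac, 10.3 for H2A.Zac, 7.31 for H2A.Z and 9.25 for H3K4me1. In the control, where the peaks chose the regions, it was 13.4 for H3K27ac, 15.5 for H2A.Zac, 7.16 for H2A.Z and 7.25 for H3K4me1. The acetylated form thus stood higher above its library's average than total H2A.Z, by a median ratio of 1.65 with overexpression and 2.16 in the control. Such ratios between antibodies depend on how well each one works. The label of the regions rests on the authors' peak calls, which were kept at a p of 0.05. At a q of 0.05 or less, 98.6% of the regions still had a control H2A.Zac peak and 92.6% an H3K27ac peak, but 65.4% had an H2A.Z peak and 61.9% an H3K4me1 peak. Held to that q in all 4 lists, the rule left 567 regions.

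Heights of the marks varied together to different degrees across the four-mark regions. H2A.Zac and H2A.Z had a Spearman coefficient of 0.67 with overexpression (1123 regions with both peaks) and 0.69 in the control (1632 regions). H3K27ac and H2A.Zac had 0.45 in both groups. The lowest coefficient of the 6 pairs was that of H3K4me1 and H2A.Zac, 0.08 with overexpression and 0.11 in the control. Regions share a library and its local background, so these coefficients describe the regions and were not tested.

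Found again with overexpression were H3K27ac, H2A.Zac and H3K4me1 at nearly all four-mark regions, and H2A.Z at fewer. An overexpression H3K27ac peak overlapped 1490 of 1632 regions (91.3%, Wilson 95% interval 89.8 to 92.6), beside 86.4% of all 25333 control H3K27ac regions. An overexpression H2A.Zac peak overlapped 1517 (93.0%, 91.6 to 94.1), beside 68.0%. H3K4me1 was found again at 1528 (93.6%, 92.3 to 94.7), beside 59.9%. H2A.Z was found again at 1140 (69.9%, 67.6 to 72.0), beside 46.6%. These intervals, here and below, cover counting error only. The shares over all regions are not like for like for the last 3 marks, since the four-mark regions had each of them in the control and many of the others did not. With overexpression peaks held to a q of 0.05 or less, H2A.Z was found again at 38.5% of the four-mark regions, beside 26.3% of all, H3K4me1 at 89.8% beside 52.7%, H2A.Zac at 84.6% beside 57.9% and H3K27ac at 81.4% beside 74.1%. Within 250 bp of the H3K27ac summit, an overexpression peak was present for H3K4me1 at 62.3% beside 43.5%, for H2A.Z at 58.5% beside 40.6%, for H2A.Zac at 88.1% beside 64.7% and for H3K27ac at 89.5% beside 85.0%.

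**Figure D1:**
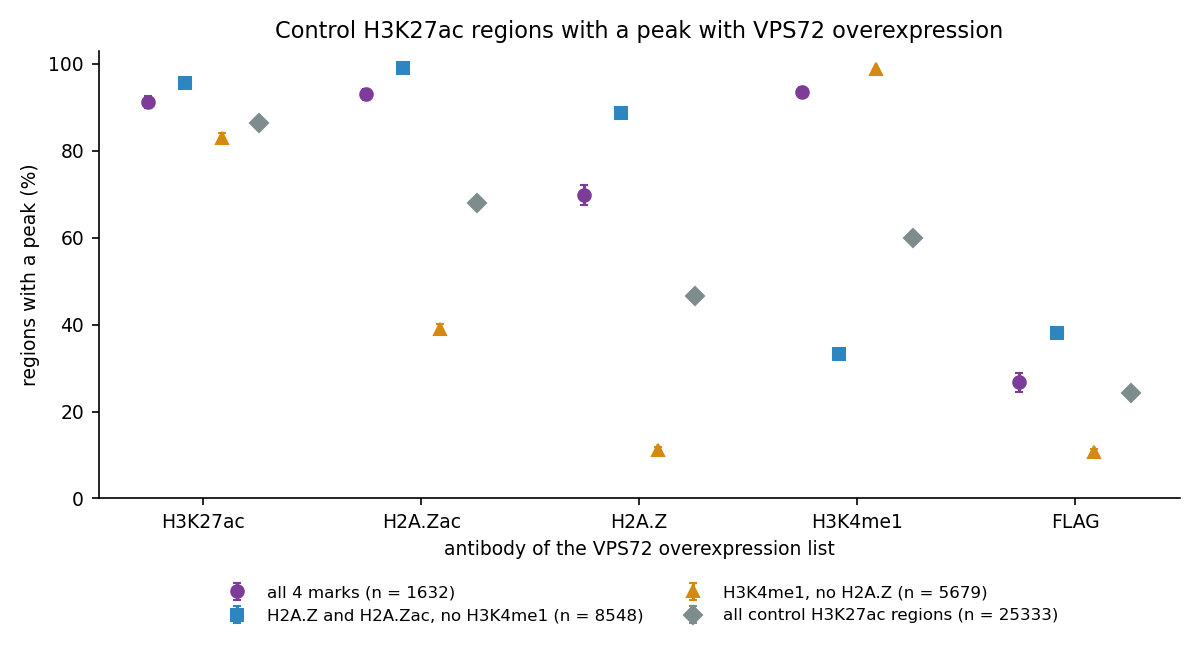
Percentage of control H3K27ac regions that overlapped any VPS72 overexpression peak of each antibody, for 4 sets of regions (points, with Wilson 95% intervals). At the four-mark regions the H2A.Z point stands at 69.9%, below the 3 other histone marks and below the 88.7% of regions without H3K4me1.

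Set beside regions that also had H2A.Z and H2A.Zac in the control but no H3K4me1, the four-mark regions had an H2A.Z peak with overexpression less often. The share was 69.9% at four-mark regions and 88.7% (88.0 to 89.4) at regions without H3K4me1. H2A.Zac was found again at 93.0% of the four-mark regions and 99.1% of regions without H3K4me1, and H3K27ac at 91.3% and 95.6% of them. Regions were also sorted into 5 classes by the strength of their own control H2A.Z peak, its −log10 q. In the weakest class H2A.Z was found again at 51.5% (47.0 to 55.9) of four-mark regions and 72.9% (70.5 to 75.3) of regions without H3K4me1. In the strongest class the shares were 97.0% (94.2 to 98.5) and 98.3% (97.6 to 98.8), and their intervals overlapped. In the 3 classes between, 61.6%, 73.2% and 86.5% of four-mark regions and 83.5%, 90.1% and 94.8% of regions without H3K4me1 had it.

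A like picture came from 5 classes of control H3K27ac strength. H2A.Z was found again at 60.4% of four-mark regions and 78.8% of regions without H3K4me1 in the weakest class, and at 83.9% (80.3 to 86.9) and 90.9% (89.8 to 91.9) in the strongest. For H3K27ac itself, 56.1% and 66.4% were found again in the weakest class, and all 471 four-mark regions and all 2721 regions without H3K4me1 in the strongest. H3K4me1 was found again at 96.3% (92.5 to 98.2) of four-mark regions in the weakest class and 91.9% (89.1 to 94.1) in the strongest, intervals that overlap. In the classes between, from weaker to stronger, the shares were 96.3% (93.4 to 97.9), 95.1% (92.3 to 96.9) and 90.7% (87.1 to 93.4). By its own strength, H3K4me1 was found again at 84.0% (79.8 to 87.5) of four-mark regions and 97.3% (96.1 to 98.1) of regions without H2A.Z in the weakest class, and at 98% (95.9 to 99.0) and 99.7% (99.2 to 99.9) in the strongest.

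A minority of the regions met the rule again in the overexpression lists. With overexpression, 395 of the 1632 regions (24.2%, 22.2 to 26.3) overlapped a region that met the rule there, beside 5.62% of all control H3K27ac regions. Without the width limit, 962 (58.9%) had an overexpression peak of each of the 4 marks, beside 18.0%. A further 352 (21.6%) had the other 3 but no H2A.Z peak. Only 90 (5.51%) lacked H3K4me1 alone, 67 (4.11%) lacked H3K27ac alone and 12 (0.735%) lacked H2A.Zac alone. At 2 regions no overexpression peak of any of the 4 was found. Shares lacking 1 mark alone were not taken over all control H3K27ac regions. H2A.Z was the least often found of the 4 marks there too, at 46.6%.

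H2A.Z accounted for most of the regions that no longer met the rule. Among the 1237 of them, 1013 (81.9%) had no overexpression H2A.Z peak of 500 bp, and for 566 (45.8%) H2A.Z was the only mark without one. H3K27ac was without such a peak at 310, H2A.Zac at 282 and H3K4me1 at 176. The share that met the rule again was 9.60% (6.84 to 13.3) in the weakest of 5 classes of control H2A.Z strength drawn over the four-mark regions alone and 47.6% (42.3 to 53.0) in the strongest. An overexpression peak of at least 500 bp was found for H2A.Z at 37.4% of four-mark regions, beside 25.9% of all control H3K27ac regions, for H3K27ac at 81.0% beside 73.1%, for H2A.Zac at 82.7% beside 55.1% and for H3K4me1 at 88.5% beside 51.7%. H2A.Z was thus the mark least often found over all regions as well. The strongest H2A.Z peak of a region had a median width of 503 bp with overexpression, and of 805 bp in the control, where the rule asked for a peak of at least 500 bp. The overexpression list is the shorter of the 2 H2A.Z lists, and its part in these shares was not tested.

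The rule was also run the other way, because a list favours the regions that it selects. Of the 1491 regions with all 4 marks with overexpression, 400 (26.8%, 24.6 to 29.1) overlapped a control region with all 4. The share beside it in the first direction was 24.2%. How many of all 24000 overexpression H3K27ac regions overlapped a control four-mark region was not counted.

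Heights were compared at regions with a peak of the mark in both groups. H3K27ac had a median height of 11.2 with overexpression and 15.0 in the control, a median ratio of 0.750 (95% interval of the median 0.738 to 0.764, 1490 regions). For H2A.Zac the heights were 10.3 and 16.5, with a ratio of 0.636 (0.627 to 0.645, 1517 regions). For H2A.Z they were 7.31 with overexpression and 7.87 in the control, with a ratio of 0.908 (0.852 to 0.923, 1140 regions). H3K4me1 was the mark with the higher level in the overexpression library, 9.25 beside 7.25 in the control, with a ratio of 1.24 (1.22 to 1.26, 1528 regions). It was higher with overexpression at 1253 of those regions (82.0%), while H2A.Zac was higher at 41 of 1517 (2.70%).

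**Figure D2:**
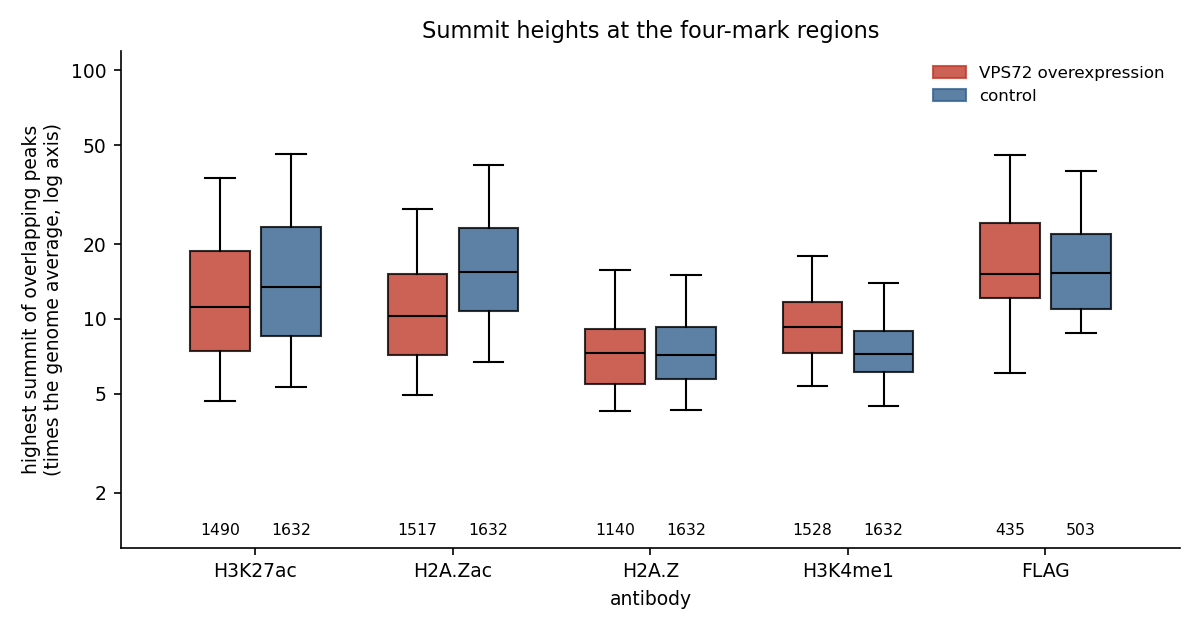
Height of the highest summit among the peaks that overlap each four-mark region, in times the genome average on a log axis, with VPS72 overexpression and in the control. Boxes give the median and quartiles, whiskers the 5th and 95th percentiles, and the number under each box the regions with a peak. The H2A.Zac boxes stand apart most, with medians of 10.3 and 15.5, and the H3K4me1 boxes are the only histone pair in which the overexpression box is clearly the upper one.

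These shifts were close to those over all control H3K27ac regions. There the median ratios were 0.762 for H3K27ac, 0.652 for H2A.Zac, 0.937 for H2A.Z and 1.31 for H3K4me1. A height at most 1/1.5 of the control was seen for H2A.Zac at 59.3% of four-mark regions beside 54.3% of all, for H3K27ac at 28.2% beside 28.4% and for H2A.Z at 14.3% beside 11.9%. A height at least 1.5 times the control was seen for H3K4me1 at 22.2% of four-mark regions beside 29.2% of all, for H2A.Z at 2.37% beside 4.82%, for H3K27ac at 1.21% beside 1.57% and for H2A.Zac at 0 of 1517, beside 0.136% of all. H3K4me1 was at most 1/1.5 of the control at 1.05% of four-mark regions beside 0.781% of all. At the 1491 regions chosen in the overexpression lists the ratios were 0.748, 0.645, 0.937 and 1.31 in the same order of marks. The height ratios thus had the same directions at regions chosen in either set of lists. By the deposited fold of summit over local background, the H2A.Z ratio was 0.924 (0.905 to 0.943) at the control four-mark regions. At the 1491 it was 1.02 (1.00 to 1.05), so by that measure H2A.Z was not lower there. With 1 library a group, a difference in library quality and a difference between the cells cannot be told apart.

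At the four-mark regions, H3K4me1 summits lay farther from the H3K27ac summit than those of H2A.Zac and H2A.Z, and often outside the region. Distances were taken between the control H3K27ac summit and the summit of the peak with the highest −log10 q of each other list. With overexpression the median distance was 175 bp for H2A.Zac, 261 bp for H2A.Z and 752 bp (95% interval of the median 718 to 788) for H3K4me1. In the control it was 190 bp for H2A.Zac, 304 bp for H2A.Z and 766 bp (740 to 798) for H3K4me1. Taken to the nearest summit in place of the strongest, the control H3K4me1 distance was 610 bp. The H3K4me1 summit fell inside the H3K27ac peak at 55.7% of the regions with a peak with overexpression and at 54.7% in the control, while the H2A.Z summit did so at 93.6% and 89.6%.

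**Figure D3:**
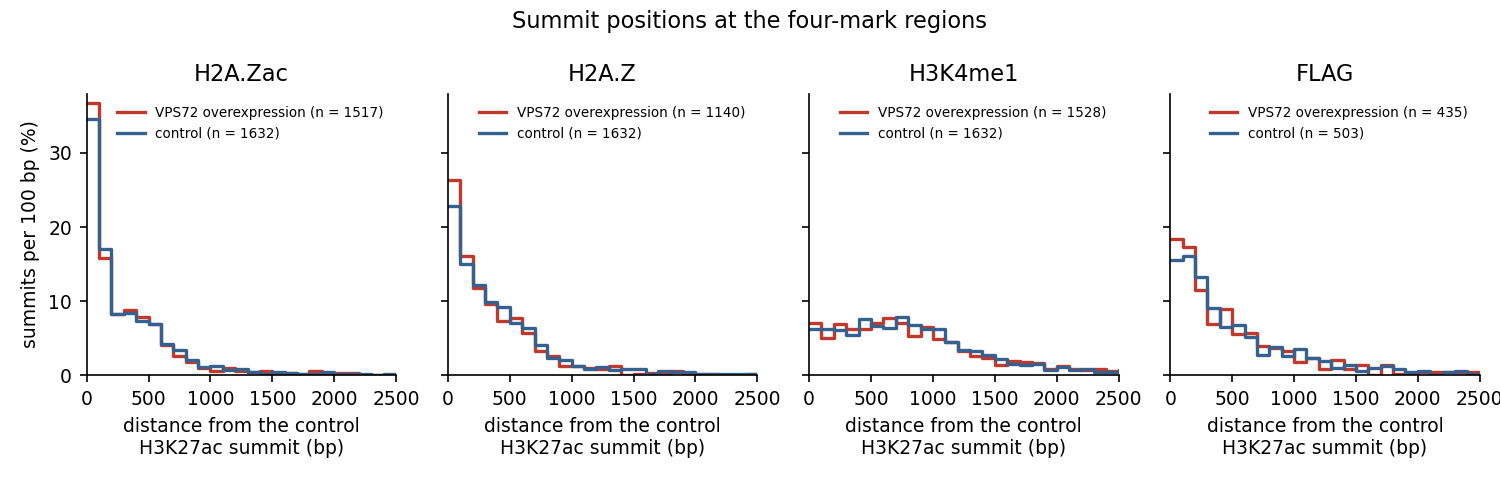
Distance in bp between the control H3K27ac summit and the strongest summit of each other antibody at the four-mark regions, as the percentage of regions with a peak in each 100 bp, with VPS72 overexpression and in the control. H2A.Zac and H2A.Z are most frequent in the first 100 bp and FLAG in the first 200 bp, while H3K4me1 is spread evenly to about 1000 bp in both groups.

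H3K4me1 covered more of the regions with overexpression, and H2A.Z less. The rule asked for a control peak of at least 500 bp of each mark, which favours coverage in the control. The overexpression lists were under no such demand, and the part of the choice in these values was not tested. H3K4me1 peaks covered 52.4% of all bases of the four-mark regions with overexpression and 40.9% in the control. H2A.Z peaks covered 26.3% and 52.2%, and H2A.Zac peaks 56.5% and 78.3%. The directions were the same in the sets beside them. H2A.Z covered 46.5% of bases with overexpression and 66.4% in the control at regions without H3K4me1. H3K4me1 covered 73.5% and 55.5% at regions without H2A.Z. The H3K27ac summit itself lay under an H3K4me1 peak at 44.9% (42.5 to 47.3) of regions with overexpression and 35.8% (33.5 to 38.1) in the control. It lay under an H2A.Z peak at 45.4% (43.0 to 47.8) with overexpression and 78.0% (75.9 to 79.9) in the control. At regions with H3K4me1 but no H2A.Z, the H3K27ac summit was under H3K4me1 more often than at four-mark regions, at 77.3% with overexpression and 58.4% in the control.

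H3K4me1 peaks of at least 500 bp lay in 3 arrangements at the four-mark regions: over the H3K27ac summit, on both sides of it but not over it, or on 1 side only. With overexpression, 49.4% of the 1444 regions with such a peak had it over the summit, 19% on both sides and 31.6% on 1 side. In the control, 543 of the 1632 (33.3%) had it over the summit, 185 (11.3%) on both sides and 904 (55.4%) on 1 side. The control arrangement was used to sort the regions. Of the 904 regions with H3K4me1 on 1 side in the control, 192 (21.2%) had an overexpression H3K4me1 peak over the summit.

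These arrangements, which were drawn up after earlier results of these data were known, differed in lists that the rule did not use. An H2A.Z peak was found with overexpression at 54.3% (50.1 to 58.5) of regions with H3K4me1 over the summit, 72.4% (65.6 to 78.4) of those with it on both sides and 78.7% (75.9 to 81.2) of those with it on 1 side. All 4 marks were met again at 13.6% (11.0 to 16.8), 36.8% (30.1 to 43.9) and 28.0% (25.2 to 31.0). A FLAG peak with overexpression was present at 12.3% (9.83 to 15.4), 29.2% (23.1 to 36.1) and 34.7% (31.7 to 37.9), and a control FLAG peak at 18.4%, 30.3% and 38.4%. H3K4me1 itself was found again more often over the summit, at 98.9% (97.6 to 99.5), than on 1 side, at 89.5% (87.3 to 91.3).

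**Figure D4:**
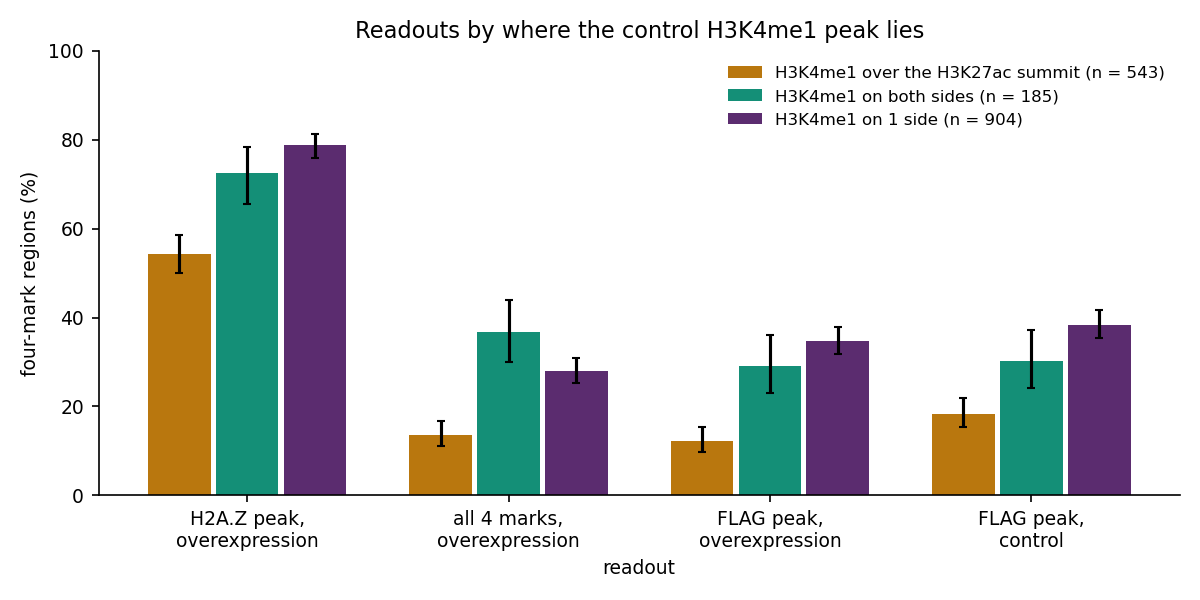
Percentage of four-mark regions with each readout (bars, with Wilson 95% intervals), by whether the control H3K4me1 peak lay over the H3K27ac summit, on both sides of it or on 1 side. The bars for H3K4me1 over the summit are the lowest of the 3 in each readout, at 54.3%, 13.6%, 12.3% and 18.4%.

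Regions with H3K4me1 over the summit were also narrower and lower in the control, and the part of these differences in the shares was not tested. Their median width was 1058 bp, beside 2185 bp for both sides and 1564 bp for 1 side, and their median H3K27ac height was 9.08, beside 19.8 and 16.6. Within regions 1089 to 1901 bp wide, a FLAG peak with overexpression was present at 13.9% (9.41 to 19.9) of regions with H3K4me1 over the summit, beside 25.0% (15.2 to 38.2) for both sides and 31.9% (27.1 to 37.1) for 1 side. Within 250 bp of the H3K27ac summit, whatever the width, the shares were 8.10% (6.09 to 10.7), 17.3% (12.5 to 23.4) and 26.0% (23.2 to 29.0) with overexpression and 11.6%, 21.1% and 29.6% in the control. The height ratios between the groups hardly differed by arrangement, at 0.627, 0.621 and 0.641 for H2A.Zac and 1.26, 1.26 and 1.22 for H3K4me1.

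FLAG, which reports VPS72 in these cells, was present at a minority of the four-mark regions in both groups. A FLAG peak overlapped 435 regions with overexpression (26.7%, 24.6 to 28.9), beside 24.3% of all control H3K27ac regions, and 503 in the control (30.8%, 28.6 to 33.1), beside 24.2%. In 5 classes of control H3K27ac strength, weakest first, the overexpression shares were 14.4%, 17.3%, 19.4%, 27.3% and 42.3%. Over all regions they were 13%, 15.8%, 22.7%, 29.2% and 40.2%, so neither set was higher throughout. The control shares were 18.2%, 19%, 24.9%, 27.3% and 50.1%, beside 10.9%, 13.4%, 21.5%, 29.7% and 45.1%. Intervals overlapped in every class with overexpression, and in the control in all but the weakest 2. Shares by reads, q, width or distance were not taken within these classes. The inputs had a peak at 0 of 1632 regions in both groups, which allows a share of up to 0.184%. Over all control H3K27ac regions the share was 0.0237% with overexpression and 0.0197% in the control, so the 0 does not set the four-mark regions apart. Among regions with a FLAG peak, the median of the highest summit was 5 reads with overexpression and 7 in the control, so many calls rest on few reads. With overexpression that summit had 1 read at 3.45% of such four-mark regions and at 12.6% of such regions over all. In the control it had 1 read at 0 regions of either kind, and could not have had it. The lowest background was the genome average, 0.329 reads with overexpression and 0.456 in the control. At these values 1 read passes a p of 0.05 only with overexpression. Shares with any FLAG peak thus rest on unlike read limits in the 2 groups. A FLAG summit of at least 5 reads was present at 16.6% of the four-mark regions with overexpression, beside 10.1% of all control H3K27ac regions, and at 26.4% in the control, beside 17.2%, in libraries of unequal depth. At a q of 0.05 or less the shares of four-mark regions with FLAG were 13.1% with overexpression, beside 8.81% of all, and 20.2% in the control, beside 13.8%. Within 250 bp of the H3K27ac summit they were 19.1% with overexpression, the same as over all regions, and 22.7% in the control, beside 20.2%. FLAG peaks of at least 500 bp were present at 12.9% with overexpression, beside 9.64% of all control H3K27ac regions, and at 18.3% in the control, beside 12.4%. FLAG ChIP of cells without the tag was not analysed here, and signal unrelated to VPS72 cannot be told apart from its binding.

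The regions fell between the other sets in FLAG. Regions without H3K4me1 had a FLAG peak at 38.1% (37.1 to 39.1) with overexpression and 42.6% (41.6 to 43.7) in the control, and regions without H2A.Z at 10.6% (9.81 to 11.4) and 7.40% (6.74 to 8.11). At regions without H2A.Z, 209 of the 601 overexpression FLAG summits (34.8%) had 1 read, and 0 of the 420 in the control, where 1 read could not pass the p limit. With at least 5 reads, the shares there were 2.75% with overexpression and 4.77% in the control. At regions without H3K4me1 they were 18.5% and 31.7%. Sorted by control H2A.Z height and by width into 9 classes, four-mark regions had FLAG less often than regions without H3K4me1 in 9 of 9 classes with overexpression and in 8 of 9 in the control, in 6 of 9 beyond the intervals in each group. In the class of lowest H2A.Z and greatest width the shares with overexpression were 17.2% (12.9 to 22.5) at four-mark regions and 41.1% (37.0 to 45.2) at regions without H3K4me1. In the class of highest H2A.Z and greatest width they were 52.0% (45.5 to 58.4) and 53.9% (50.6 to 57.2).

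Four-mark regions with FLAG had H2A.Z again more often. Both FLAG lists had a peak at 329 regions (20.2%), the overexpression list alone at 106, the control list alone at 174 and neither at 1023 (62.7%). H2A.Z was found with overexpression at 91.2% (87.6 to 93.8) of the 329 regions with both, 74.5% (65.5 to 81.9) of the 106, 81.6% (75.2 to 86.7) of the 174 and 60.5% (57.5 to 63.5) of the 1023 with neither. All 4 marks were met again at 42.6% (37.3 to 48.0), 23.6%, 29.3% and 17.5% (15.3 to 19.9). Regions with both FLAG peaks were wider, with a median of 1755 bp beside 1315 bp for neither, and had a control H2A.Z height of 9.30 beside 6.44, and the part of these in the shares was not tested. At the 329 regions the FLAG heights had a median ratio of 0.989 (0.941 to 1.08) between overexpression and control, with a ratio of at least 1.5 at 14.9% of them, beside 18.5% of all regions with both peaks, and of at most 1/1.5 at 11.6%, beside 13.1%.

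The region that ranked best in its weakest mark lay in 11q13.2, at chr11:67070177-67071973 (hg19), 1797 bp wide. H3K27ac stood at 43.8 times the genome average there with overexpression and at 67.9 in the control, H2A.Zac at 56.0 and 93.8, H2A.Z at 35.3 and 37.2, and H3K4me1 at 17.5 and 21.8. FLAG peaks reached into it from summits 2222 bp away with overexpression, at a height of 57.7, and 2018 bp away in the control, at a height of 107, both outside the region. An overexpression FLAG summit inside it, 110 bp from the H3K27ac summit, had a height of 39.5. The H2A.Zac and H2A.Z peaks were centred within 160 bp of the H3K27ac summit in both groups, and the H3K4me1 peaks flanked it on both sides. Each histone mark thus had a peak in both groups, and all 4 had the greater height in the control library. For H2A.Z this held by height only. Its summit had 58 reads and a fold of 7.31 with overexpression, beside 52 reads and a fold of 5.55 in the control.

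**Figure D5:**
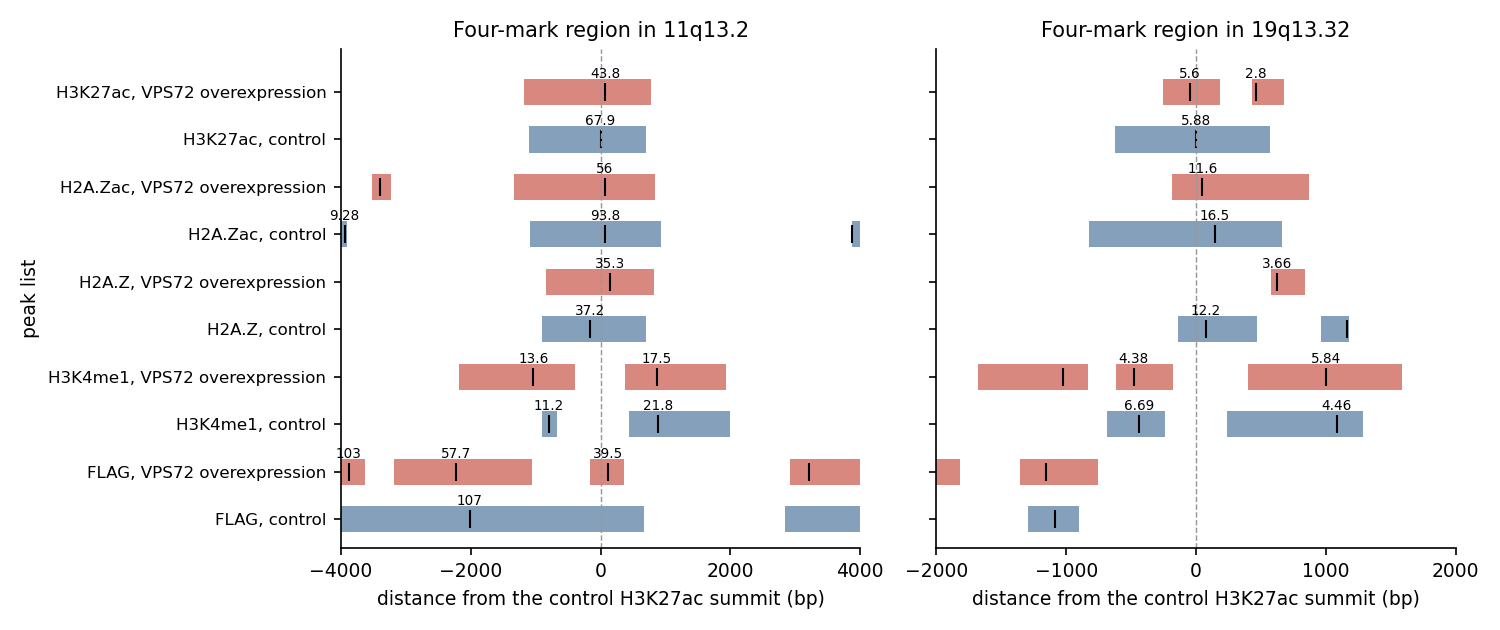
Peaks of the 10 ChIP lists at the four-mark region with the best rank in its weakest mark (11q13.2) and at the one with the strongest control H2A.Z peak among those with no overexpression H2A.Z peak (19q13.32), against the distance in bp from the control H3K27ac summit. Bars are deposited peaks, ticks their summits and numbers their heights in times the genome average, printed where they were recovered. In 11q13.2 the H3K4me1 peaks flank the centre, and in 19q13.32 the control H2A.Z peak at the centre has no overexpression H2A.Z peak at the same position.

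The 6 regions with the highest control H3K27ac −log10 q were 4 of 11q13.2, 1 of 9q34.11 and 1 of 14q11.2. The first of them, chr11:67055397-67057940, had an H3K27ac summit of 218 reads with overexpression and 256 in the control, at heights of 102 and 137. Its H2A.Zac heights were 39.4 and 59.3, its H2A.Z heights 18.9 and 21.5, and its H3K4me1 heights 34.5 with overexpression and 19 in the control. FLAG had heights of 33.4 with overexpression and 26.3 in the control, from 11 and 12 reads in libraries of unequal depth. H3K4me1 was thus higher with overexpression and the other 3 histone marks were lower in height, though H2A.Z had 31 reads beside 30 in the control. FLAG was higher in height but not in reads. At chr9:132243779-132246735 H3K27ac stood at 36.8 and 67.3, H2A.Zac at 8.95 and 21.1, H2A.Z at 4.88 and 5.73 and H3K4me1 at 9.25 and 8.92. The widest four-mark region, chr14:23444545-23452830, had H3K27ac heights of 54.1 with overexpression and 74.8 in the control and H2A.Zac heights of 10.3 and 19.6. It had no H2A.Z peak with overexpression, and its strongest control H2A.Z peak had 10 reads, and its strongest H3K4me1 summits lay 6535 and 5821 bp from the H3K27ac summit.

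Among regions with no overexpression H2A.Z peak, those with the strongest control H2A.Z peak lay in 19q13.32 and 22q11.21. At chr19:46160484-46161673 the nearest overexpression H2A.Z peak began 574 bp from the H3K27ac summit, past the region's edge at 569 bp, while the control H2A.Z summit inside it had 17 reads, a height of 12.2. H2A.Zac stood at 11.6 with overexpression and 16.5 in the control, H3K27ac at 5.60 and 5.88 and H3K4me1 at 5.84 and 6.69, and FLAG had no peak in either list. At chr22:18538674-18539213 the control H2A.Z height was 12.9, with H2A.Zac at 12.5 with overexpression and 18.6 in the control, H3K27ac at 8.86 and 13.9 and H3K4me1 at 13.6 and 10.6. Both regions kept the acetylated form's peak without one of total H2A.Z.

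Other marks were missing with overexpression at few strong regions. H3K4me1 had no overexpression peak at chr12:52444291-52444920, where its control height was 11.2, while H2A.Zac stood at 17.9 with overexpression and 33.5 in the control and H2A.Z at 11.0 and 10.0. H2A.Zac and H2A.Z both had none at chr15:70489315-70490221, where their control heights were 18.6 and 5.73, and H3K4me1 there stood at 13.1 with overexpression and 11.7 in the control. H3K27ac and H3K4me1 both had none at chr19:50528978-50529723, with control heights of 11.2 and 4.46, while H2A.Z stood at 7.92 with overexpression and 8.59 in the control.

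The 4 regions overlapped by the strongest FLAG peaks were the same in both groups and all lay in 1q42.13, the band known for the 5S ribosomal RNA genes, a tandem repeat. Copies of a repeat can share reads, so that values there are uncertain. The FLAG peak that overlapped chr1:228748374-228748970 had 120 reads at its summit with overexpression and 186 in the control, heights of 364 and 408, but this summit lay 732 and 683 bp from the H3K27ac summit of a region 597 bp wide. The same FLAG peak also reached chr1:228749291-228749967, and the peak that reached chr1:228770644-228771252, with heights of 319 and 355, had its summit 1802 bp away with overexpression and 3604 bp away in the control. At chr1:228764056-228764761 the FLAG summit lay 154 bp from that of H3K27ac with overexpression and 78 bp in the control, with heights of 255 and 274, beside H3K27ac heights of 21.9 and 19.2. The median FLAG height over all four-mark regions with a FLAG peak was 15.2 with overexpression and 15.3 in the control.

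Four-mark regions were spread over 399 of 851 cytogenetic bands but were dense in a few. Chromosome 20 held 131, which is 16.6% (14.1 to 19.3) of its control H3K27ac regions, chromosome 22 held 11.9% and chromosome 11 held 9.92%, while chromosome 13 held 7 of 537 (1.30%). The band 11q13.2 alone held 46 of 94 (48.9%), followed by 30 in 19p13.3, 27 in 20q13.13, 22 in 1q32.1, 19 in 11q13.3 and 18 in 22q11.21. In 11q13.2, 36 of the 46 met the rule again with overexpression, and all 46 had an overexpression H2A.Z and H3K4me1 peak. In 20q13.13, 8 of 27 met it again, and in 1q32.1, 4 of 22.

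The local background, the reads that the peak caller took as background around a peak over the genome average, was high in some of these bands and not in others. Its median over all four-mark regions was 1.47 with overexpression and 1.29 in the control. Its median at the four-mark regions of 11q13.2 was 4.94 with overexpression and 4.26 in the control, and it was 2.60 and 2.44 in 11q13.3, 1.69 and 1.81 in 20q13.13, 1.65 and 1.39 in 22q11.21, 1.33 and 1.21 in 19p13.3 and 1.31 and 1.30 in 1q32.1. A local background of at least 2.5 was seen with overexpression at 172 of the 1490 four-mark regions with an H3K27ac peak there (11.5%), beside 4.77% of all 21890 such regions, and in the control at 8.46% of the 1632, beside 4.18% of all. The part of the local background in the density of these bands was not tested. Without the regions whose control background reached 2.5, 1494 four-mark regions remained, of which 67.8% had H2A.Z with overexpression and 20.0% (18.1 to 22.1) met the rule again. The heights in 11q13.2 were high for all marks, with medians of 40.6 with overexpression and 41.7 in the control for H3K27ac, 38.5 and 58.0 for H2A.Zac, 20.4 and 23.6 for H2A.Z and 23.4 and 17.3 for H3K4me1.

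Within 10 kb of another four-mark region lay 262 four-mark regions (16.1%), beside 17.2% of regions without H3K4me1 and 48.8% of regions without H2A.Z that lay so near to one of their own set, and 15 groups of 3 or more were formed at that distance, the largest of 4 regions. Any other control H3K27ac region lay within 10 kb of 55.2% of them, beside 52.1% of all, 34.7% of regions without H3K4me1 and 74.1% of regions without H2A.Z. The median gap to the next H3K27ac region of any kind was 8.05 kb at four-mark regions, 8.81 kb over all, 20.4 kb at regions without H3K4me1 and 1.85 kb at regions without H2A.Z.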

How the data were processed

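Deposited peaks of 12 libraries were read, 1 per antibody or input in each group. The submitters' processing notes name FastQC, Trimmomatic, BWA and MACS2, with hg19 and hg38 as builds. Peaks of 23 of 23 chromosomes lay within hg19 lengths and those of 14 of 23 passed an hg38 length, so coordinates are hg19. How MACS2 was set, and against which control, is not given in the sources used. The fold in the authors' files is the ratio of summit to local background, per peak, in the MACS2 format. The authors' files give p and q as −log10 values, one pair per summit, and the smallest −log10 p of a list was 1.30 to 1.31. Summit positions were taken from the deposited offsets. Peak names of the control H3K4me1 list misspell the mark, and its title was followed.

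Fold and p together gave the whole number of reads under a summit, to a tolerance of 0.002 in the scaled pileup, wider at high summits. Heights are these reads over the genome average of the library, which was taken from its lowest recovered local backgrounds. Depth was derived from that average, the shortest peak width and an assumed genome of 2.7 Gb. The recovery and the overlaps were tested on simulated data. Overlap meant at least 1 bp. Shares have Wilson 95% intervals, and medians intervals from order statistics. A height ratio was called at 1.5 or at 1/1.5. Named regions were the 6 with the highest control H3K27ac −log10 q, the 6 with the best worst rank over the 4 marks, the 4 widest and 4 narrowest, the 2 strongest per mark without an overexpression peak of it, the 4 strongest in FLAG per group, and those of the 6 bands with most regions; a selection is printed. The members, sets and classes were chosen with earlier results of these data known. The classes by a mark's own strength, the H3K4me1 arrangements, the 250 bp window and the limit on local background were added after seeing the data. Genes were not assigned, because an hg19 annotation was not used here. R 4.3.3 supplied bands (circlize 0.4.16) and chromosome lengths (GenomeInfoDb 1.38.1), and Python 3.11.15 the rest, with pandas 2.3.3, numpy 2.4.6, scipy 1.17.1 and matplotlib 3.10.9.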

Additional observations from a re-analysis of the deposited data

How the results depend on the processing

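No paired analysis was possible because each antibody had 1 library per group and no result came from a test, and for the same reason no library could be left out. With a minimum width of 1000 bp, 150 regions remained, and H3K27ac, H2A.Zac, H2A.Z and H3K4me1 were found again at 98.7%, 97.3%, 84.0% and 98.7%. FLAG was then at 36.0% with overexpression and 46.0% in the control, 21.9% of the overexpression four-mark regions had all 4 marks in the control, the H2A.Zac height ratio was 0.608, and the control distances of H2A.Zac, H2A.Z and H3K4me1 were 158, 362 and 1080 bp. When the 4 control lists were held to a q of at most 0.05, 567 regions remained, the marks were found again at 95.1%, 97.7%, 80.2% and 96.5%, all 4 at 27% and in the other direction at 17.1%. The H2A.Z and H3K4me1 ratios were then 0.852 and 1.21, FLAG was at 31.7% with overexpression and 37.4% in the control, and the H3K4me1 distance was 846 bp. With an overlap of at least 200 bp, H3K4me1 was found again at 97.4% and all 4 marks at 20.1%, FLAG was at 23.5% with overexpression and 28.1% in the control, and the H3K4me1 distance was 714 bp. Overexpression peaks of at least 500 bp gave 81.0%, 82.7%, 37.4% and 88.5% in the same order of marks, and those with a q of 0.05 or less 81.4%, 84.6%, 38.5% and 89.8%. FLAG peaks with such a q were at 13.1% with overexpression and 20.2% in the control, and FLAG peaks of at least 500 bp at 12.9% and 18.3%. The deposited fold gave an H2A.Z ratio of 0.924, and the nearest summits gave distances of 167, 234 and 610 bp. In 2 alternatives added after seeing the data, peaks within 250 bp of the H3K27ac summit gave 89.5%, 88.1%, 58.5% and 62.3%, with FLAG at 19.1% with overexpression and 22.7% in the control, and regions of low local background gave 20.0% for all 4 marks and 22.6% in the other direction. In every alternative that gave the 4 shares, H2A.Z was the mark found again least often. No height ratio at the regions chosen in the control lists crossed 1 in any alternative. The cause of these shifts was not tested. FLAG depth limits single calls most, and peak lists give no level where no peak was called.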

Other observations

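The 1091 regions that carried all 4 marks with overexpression but overlapped no control four-mark region differed from the reverse case in the mark that was missing. In the control, all 1091 had an H2A.Zac peak of at least 500 bp, 985 (90.3%, 88.4 to 91.9) had H3K27ac, 893 (81.9%, 79.5 to 84.0) had H2A.Z and 134 (12.3%, 10.5 to 14.4) had H3K4me1. The other 3 marks without H3K4me1 were found at 771 (70.7%), and the other 3 without H2A.Z at 60 (5.50%). With any width allowed, 434 (39.8%) had a control H3K4me1 peak, and there its height was 7.79 with overexpression and 5.58 in the control, a median ratio of 1.31 (1.27 to 1.36). H3K27ac and H2A.Zac had ratios of 0.743 and 0.652 at these regions, and H2A.Z one of 0.937. The H3K4me1 list was the longer of its pair with overexpression, and its part in this was not tested. The same shares over all overexpression H3K27ac regions were not taken.

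A FLAG peak was present at 380 of the 1091 regions with overexpression (34.8%, 32.1 to 37.7) and at 483 in the control (44.3%, 41.3 to 47.2). These shares are above the 26.7% and 30.8% of the control four-mark regions and near the 38.1% and 42.6% of control regions with H2A.Z and H2A.Zac but no H3K4me1, from which most of the 1091 came. Their median width was 1334 bp, and the bands with most of them were 1q32.1 with 16, 14q11.2 with 15 and 3p21.31 and 19p13.3 with 13 each. The band 11q13.2, which held more control four-mark regions than any other band, was not among the 6 bands with most of the 1091.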
